A study of Mus musculus with 21 samples.

Results

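Monocytes and macrophages were followed through 36 genes in glomeruli from a mouse model of immune-mediated glomerulonephritis. The genes came from a list of symbols filtered on no measured value, though it was chosen with earlier results of these data known. It held markers of lineage and surface identity, Fc receptors and their signalling adaptors, and integrins and chemokine receptors. It also held scavenger receptors, lysosomal and phagocyte-activation genes, and pan-leukocyte genes. All 36 were found among the 35598 genes of the tables, each under 1 Ensembl identifier. Of these, 33 passed the low-count filter that left 13898 genes for testing, and Fcgr1, Trem2 and Cd163 did not pass it. A member that passes through reads in 1 group only had to differ between groups, so counts over the 33 are given as descriptions beside the same count over all tested genes.

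The 21 mice were females of 3 months, and their glomeruli were cut with a laser from sections of frozen kidney. The QuantSeq FWD kit gave 1 library per mouse, read at transcript 3' ends. The study asked what Epac1, the product of Rapgef3 and a cyclic AMP sensor that switches on Rap GTPases, does in podocytes during glomerulonephritis. All mice carried floxed Epac1 alleles (Epac1fl/fl). Those without Cre are called flox, and littermates in which podocyte Cre removes the gene are called cKO, so other glomerular cells of the cKO mice keep the floxed gene. Mice received nephrotoxic serum (NTS), an antibody preparation against glomerular antigens, intravenously on 2 consecutive days and were killed on day 4 or day 11. Controls were given PBS. At day 11 each genotype had 4 libraries, at day 4 there were 4 of cKO and 3 of flox, and under PBS each genotype had 3.

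In this model, antibody deposited on the glomerular filter is bound by Fc receptors on myeloid cells. Blood monocytes enter glomeruli with the help of chemokine receptors such as CCR2 and CX3CR1 and of beta-2 integrins, and become macrophages that take up immune complexes and digest them in lysosomes. Tissue macrophages depend on the CSF1 receptor and on the transcription factor PU.1, encoded by Spi1. Several of the lysosomal genes are also made by podocytes, mesangial cells or tubule cells, so their reads in a glomerulus need not come from leukocytes.

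The libraries held 4550550 to 24295712 reads with a median of 19470098, and 7871 to 13006 genes had at least 1 read. cKO day 11 replicate 3 had the fewest reads and cKO day 4 replicate 3 the fewest genes. The podocyte list had reads for 12 of 12 genes in every library, with summed levels from 4830 to 9860 CPM (counts scaled to a common library total after TMM adjustment, the unit of every level given here). The glomerular endothelial list had reads for 9 or 10 of its 10 genes. Rapgef3 stood at 310, 201 and 300 CPM in flox PBS and at 160, 137 and 64.4 CPM in cKO PBS, without overlap. Rapgef3 overlapped between genotypes at day 4 (124 to 231 CPM in flox, 63.4 to 146 CPM in cKO) and at day 11 (131 to 347 and 139 to 199.5 CPM). Its genotype difference passed the edgeR test at no stage, with log2 fold changes of -1.16 ± 0.46 (SE) under PBS, -0.67 ± 0.43 at day 4 and -0.21 ± 0.40 at day 11, and adjusted p of 0.726, 0.879 and 1. Which exons are deleted is not given in the sources used here, so a 3' tag may not check the deletion, and other glomerular cells also express Rapgef3.

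Promoters of 4 members are shown here because these genes carry the letters of a PU.1-type core, GAGGAA or its reverse complement TTCCTC, in the 250 bases before a RefSeq start site. They encode 2 activating Fc receptors, the integrin chain CD11b and the lysosomal protease cathepsin S. The windows are at chr1:171059404-171059626 on the minus strand for Fcgr3, chr1:171018676-171018919 on the plus strand for Fcgr4, chr7:128062390-128062639 on the plus strand for Itgam and chr3:95526536-95526785 on the plus strand for Ctss, in RefSeq GRCm38.p6, and bases within GENCODE M21 exons were left out. Each is written 5' to 3' on the strand of its gene, with the matched letters in capitals.
Fcgr3: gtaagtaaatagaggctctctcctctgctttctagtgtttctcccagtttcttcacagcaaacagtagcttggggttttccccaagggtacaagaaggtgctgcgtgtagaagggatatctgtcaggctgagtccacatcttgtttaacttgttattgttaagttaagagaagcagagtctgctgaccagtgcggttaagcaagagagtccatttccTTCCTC
Fcgr4: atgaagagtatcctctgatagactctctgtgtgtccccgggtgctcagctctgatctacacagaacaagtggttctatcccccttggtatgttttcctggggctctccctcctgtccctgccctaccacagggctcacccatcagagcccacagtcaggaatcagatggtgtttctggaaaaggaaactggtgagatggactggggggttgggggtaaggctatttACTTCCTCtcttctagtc
Itgam: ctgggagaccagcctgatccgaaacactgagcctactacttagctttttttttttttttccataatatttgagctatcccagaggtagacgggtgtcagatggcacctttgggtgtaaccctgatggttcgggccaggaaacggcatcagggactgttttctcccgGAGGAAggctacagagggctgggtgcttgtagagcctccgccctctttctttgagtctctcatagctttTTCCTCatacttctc
Ctss: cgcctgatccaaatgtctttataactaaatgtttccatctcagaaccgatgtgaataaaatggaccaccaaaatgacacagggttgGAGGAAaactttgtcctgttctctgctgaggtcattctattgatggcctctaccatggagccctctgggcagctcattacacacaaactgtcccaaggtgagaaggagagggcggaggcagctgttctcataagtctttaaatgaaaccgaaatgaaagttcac
The promoter table held 29 of the 36 members. Of these, 13 (44.8%) had the core on either strand within 250 bases of a start site, beside 25.9% of all 27025 genes in the table. The longer form GAGGAAGT or ACTTCCTC, which contains the core, was found in 1 of 29 members (3.4%), Fcgr4, beside 2.8% of all genes. A match describes these letters and does not show a binding site.

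Reads of most members were sparse and differed between mice of the same group. Between 18 and 30 of the 36 members had at least 1 read in a library. The range was 18 to 27 in the PBS libraries, 19 to 28 at day 4 and 18 to 30 at day 11. Lyz2, Csf1r, Apoe, Ctss, Ctsb, Ctsd, Ctsz, Lgals3 and Lgmn had reads in all 21 libraries. At the other end Cd163, a scavenger receptor of resident macrophages, had reads in 1 PBS library, and Trem2, a lipid-sensing receptor, in 1 day 11 library. Fcgr1, the high-affinity IgG receptor, had reads in 1 PBS and 1 day 11 library. Adgre1, which encodes the macrophage surface protein F4/80, had reads in 2 of 6 PBS, 1 of 7 day 4 and 1 of 8 day 11 libraries, so this defining marker was at 0 in most libraries of every stage. Fewer cells of a type and less RNA per cell cannot be told apart in such bulk samples, and reads were not stated to be collapsed by molecule.

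**Figure D1:**
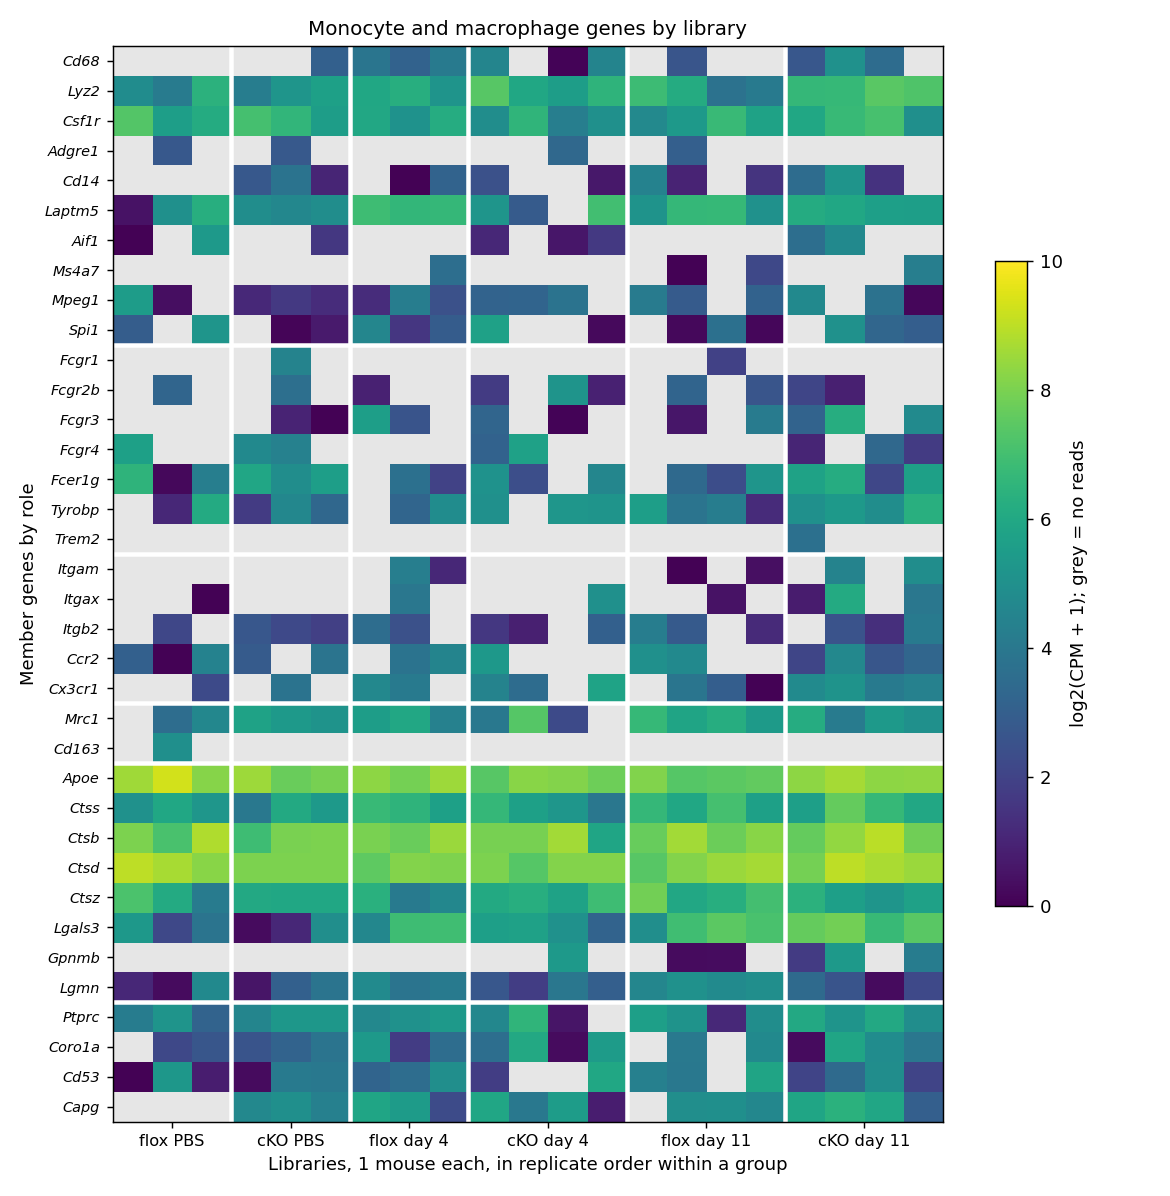
Each row is a member gene, grouped by role, and each column is the library of 1 mouse; colour gives log2(CPM + 1) and grey marks no reads. All lysosomal rows except Gpnmb are filled in every library, and rows of sparse members such as Itgam, Itgax and Fcgr4 are mostly grey.

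Among the 33 tested members, 14 had reads in a larger share of the day 11 than of the PBS libraries and 8 in a smaller share, beside 30.2% and 27.9% of all tested genes. At day 4 the numbers were 15 and 9, beside 26.5% and 40% of all tested genes. Gpnmb, a glycoprotein of lipid-laden phagocytes, had reads in 0 of 6 PBS, 1 of 7 day 4 and 5 of 8 day 11 libraries. Itgam had reads in 0, 2 and 4 of these libraries, and Ms4a7, a surface protein of tissue macrophages, in 0, 1 and 3. Cx3cr1 had reads in 2, 5 and 7. Other members had other orders. Cd68, a lysosomal membrane protein used as a macrophage stain, had reads in 1, 6 and 4, Ccr2 in 5, 3 and 6, Fcgr4 in 3, 2 and 3 and Aif1, a calcium-binding actin regulator of macrophages, in 3, 3 and 2.

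**Figure D2:**
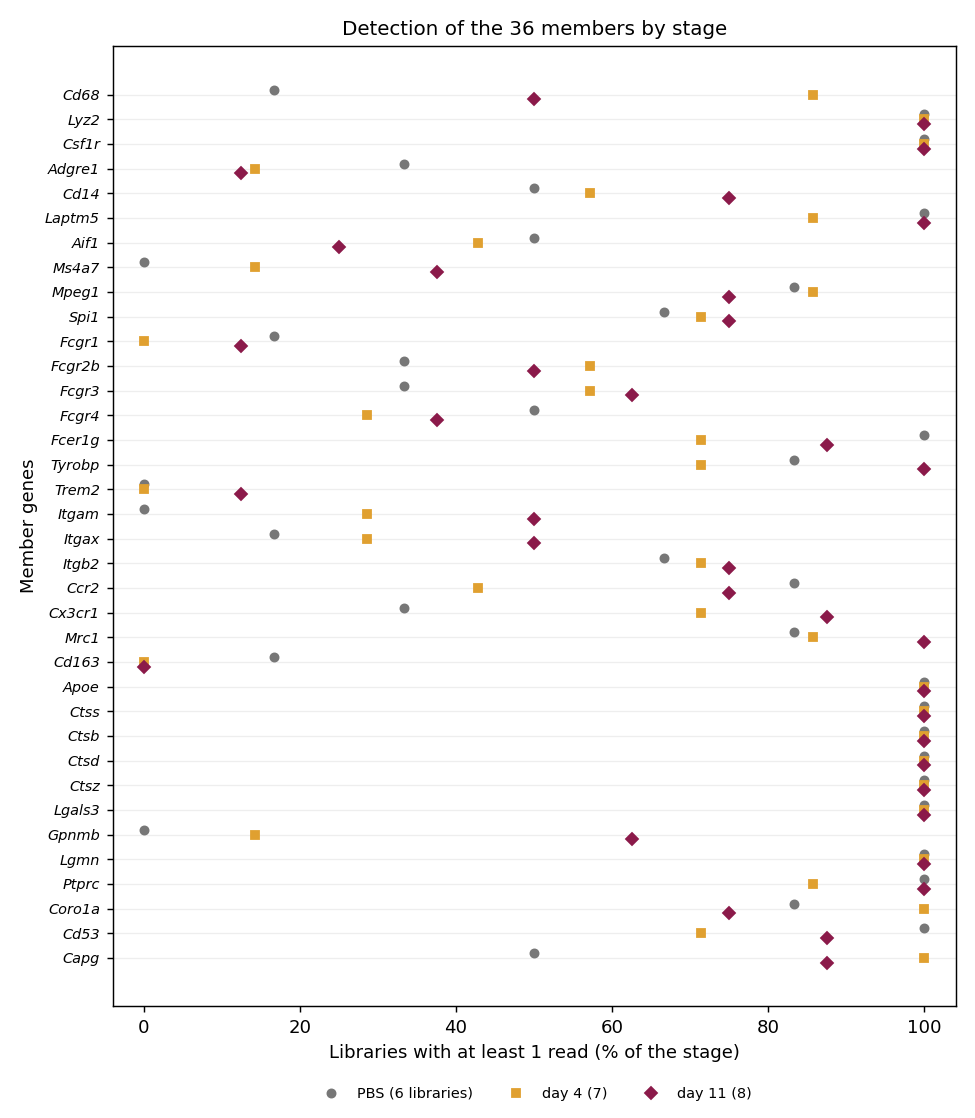
The horizontal axis is the percentage of a stage's libraries with at least 1 read and each row is a member; grey circles are PBS (6 libraries), orange squares day 4 (7) and purple diamonds day 11 (8). Gpnmb, Itgam, Ms4a7 and Cx3cr1 have their day 11 point farthest right, and 9 members stand at 100% at all stages.

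Nephritis was compared with PBS at each stage, averaged over the genotypes. Lgals3, which encodes galectin-3, a sugar-binding protein of activated macrophages that is also made by epithelial cells, had the smallest p of any member at day 11. Most members leaned to higher levels in nephritis, by amounts that the spread between mice did not separate from PBS. In the edgeR quasi-likelihood test with Benjamini-Hochberg adjustment over all 13898 genes, 0 of 33 members were called (adjusted p under 0.05) at day 4 or at day 11, beside 0.0216% and 0.122% of all tested genes. At an unadjusted p under 0.05 the test gave 5 members higher and 2 lower at day 4, beside 5.36% and 3.92% of all genes. At day 11 it gave 10 members higher (30.3%) and 1 lower (3.03%), beside 6.17% and 2.94% of all genes. DESeq2 called 8 of the 31 members it gave an adjusted p at day 4 and 9 at day 11, beside 9.82% and 9.04% of all tested genes with one, and limma voom called 0 at both, beside 0.0935% and 0.568%. Of the DESeq2 calls, all but Lgals3 at day 11 were members for which a compared group had no reads.

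The fitted log2 fold change was above 0 for 24 of the 33 members at day 4 and for 26 at day 11, beside 50.5% and 52.9% of all tested genes. The members' median was 0.62 at day 4 and 0.98 at day 11, and the median of all tested genes was 0.01 and 0.07. Fitted folds against a group without reads have no fixed size. Among the 22 members with reads in all 6 groups, 16 were above 0 at day 4 with a median of 0.51. At day 11, 18 of the 22 were above 0 with a median of 0.72. Of all tested genes with reads in every compared group, 49.2% and 50.3% were above 0, with medians of -0.02 and 0.01. Day 11 against day 4 gave 22 of 33 members above 0, beside 52.9% of all genes, a median of 0.22 and 0 calls by edgeR and by voom, beside 0% and 0.072% of all genes. That comparison gave 1 member at an unadjusted p under 0.05, beside 8.57% of all genes, and DESeq2 called 1, Itgam, beside 7.64%. The comparisons of day 4 and day 11 with PBS share their 6 PBS libraries.

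**Figure D3:**
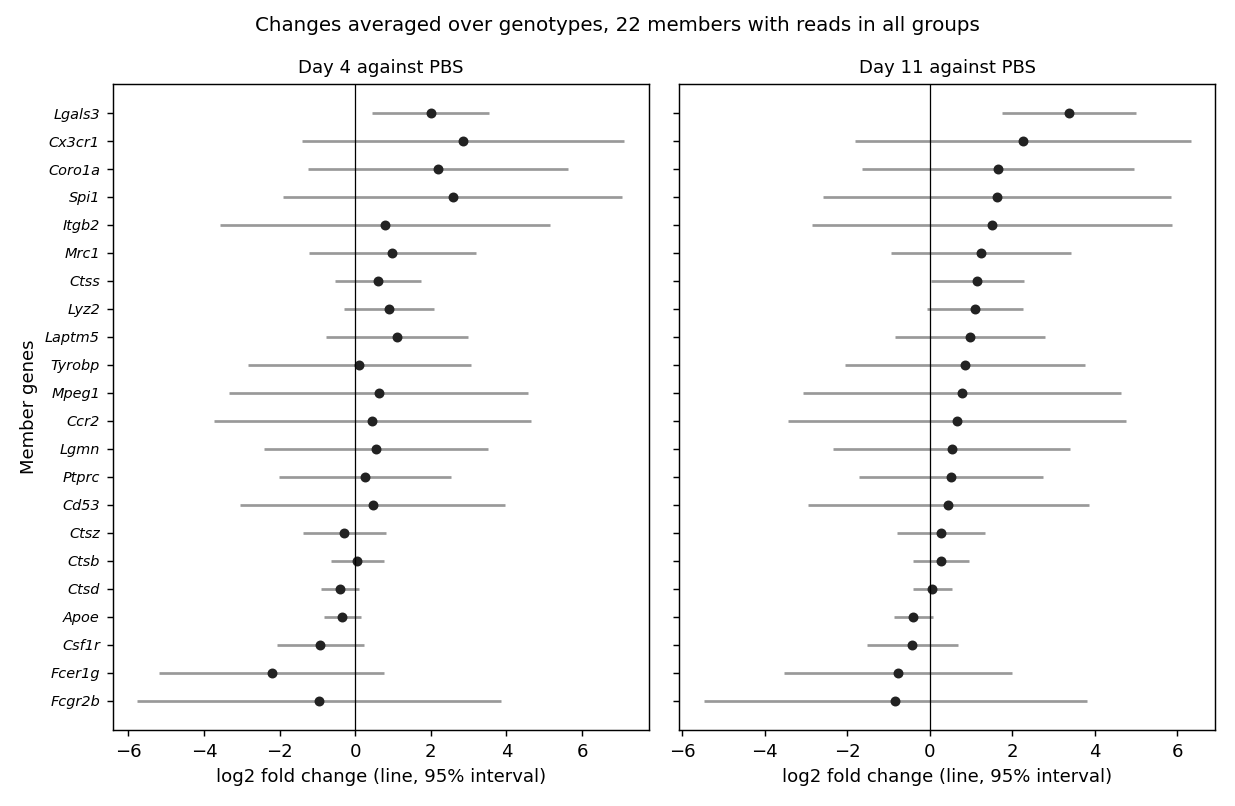
Points are edgeR log2 fold changes against PBS averaged over genotypes for the 22 members with reads in all 6 groups, at day 4 on the left and day 11 on the right, and lines are 95% confidence intervals. The Lgals3 interval is above 0 in both panels, and those of sparse members such as Fcgr2b and Spi1 span several log2 units on both sides of 0.

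The lysosomal and phagocyte-activation genes had the deepest reads among the members. Lgals3 stood at 39.4, 3.48 and 13.6 CPM in flox PBS and at 0.209, 1.17 and 29.4 CPM in cKO PBS. Lgals3 at day 4 stood at 23.5, 117 and 121 CPM in flox and at 49.4, 51.4, 32.2 and 8.05 CPM in cKO. In the day 11 libraries it stood at 29.6, 120, 179.1 and 141 CPM in flox and at 196, 234, 105 and 171 CPM in cKO. In cKO the day 11 libraries did not overlap PBS, and in flox the lowest day 11 library lay below the highest PBS library. Averaged over genotypes, the log2 fold change of Lgals3 was 2.00 ± 0.76 (SE) at day 4 and 3.37 ± 0.80 at day 11, with a 95% interval of 1.75 to 5.00 at day 11. The edgeR adjusted p was 0.391 and 0.0971, so Lgals3 did not pass the threshold at either stage. It was called at day 11 without the low-count filter (adjusted p = 0.0101) and by DESeq2 (adjusted p = 0.000141). It was also called without cKO PBS replicate 3, the highest library of that group, at day 11 (log2 fold change 5.31, adjusted p = 0.00107) and at day 4 (3.93, adjusted p = 0.0464). Leaving out any other single library gave no call of Lgals3 in these averaged comparisons.

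Gpnmb had no reads in any PBS library and none in flox day 4. It stood at 41.0 CPM in cKO day 4 replicate 3 and at 0 in the 3 other cKO day 4 libraries. At day 11 it stood at 0, 0.212, 0.25 and 0 CPM in flox and at 2.30, 41.2, 0 and 17.2 CPM in cKO. The day 11 reads were thus mainly those of 2 cKO mice, and with the PBS groups set at a floor of 3 reads the averaged log2 fold change was at least 4.69 (edgeR adjusted p = 0.352). Ctss, cathepsin S, which processes antigen in macrophages and dendritic cells, was at a mean of 42.4 CPM ± 19.0 (SD, n = 6) under PBS, 63.9 ± 34.5 (n = 7) at day 4 and 94.7 ± 51.3 (n = 8) at day 11. Its day 11 log2 fold change was 1.16 ± 0.55 (SE) with an edgeR adjusted p of 0.533, and the stages overlapped.

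The other lysosomal proteases had smaller fitted changes than Ctss at day 11. At day 11 the log2 fold change was 0.27 ± 0.33 (SE) for Ctsb, 0.07 ± 0.24 for Ctsd, 0.27 ± 0.53 for Ctsz and 0.53 ± 1.41 for Lgmn, which encodes the asparaginyl protease legumain. The 95% intervals all held 0: -0.40 to 0.94 for Ctsb, -0.42 to 0.55 for Ctsd, -0.80 to 1.34 for Ctsz and -2.35 to 3.41 for Lgmn. Those of Ctsz and Lgmn also held the Ctss change of 1.16, so these were not shown to differ less. Apoe, the lipid carrier made by macrophages and by mesangial and tubule cells, was at 356 CPM ± 151 (SD, n = 6) under PBS, 270 ± 64.9 (n = 7) at day 4 and 271 ± 84.2 (n = 8) at day 11. Its averaged log2 fold change was -0.35 ± 0.24 (SE) at day 4 and -0.40 ± 0.23 at day 11.

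Of the lineage and surface genes, Lyz2, which encodes the lysozyme of myeloid cells, ranged from 17.1 to 85.9 CPM under PBS (median 32.1), from 35.5 to 168.4 at day 4 (median 61.5) and from 12.7 to 171 at day 11 (median 101.3). The day 11 range covered the PBS range at both ends. Its log2 fold change was 0.90 ± 0.58 (SE) at day 4 and 1.09 ± 0.57 at day 11, with edgeR adjusted p of 0.741 and 0.592. Csf1r, the CSF1 receptor, ranged from 46.7 to 160.9 CPM under PBS, from 18.1 to 91.6 at day 4 and from 25.0 to 136 at day 11. Its log2 fold changes were -0.92 ± 0.57 and -0.42 ± 0.54 (SE), and with Adgre1 and Aif1 it was among the 3 of 10 lineage genes whose fitted change was below 0 at both stages. Laptm5, a lysosomal membrane protein of leukocytes, stood at 0.421, 31.4 and 75.8 CPM in flox PBS and at 119, 98.7 and 100.9 in flox day 4, without overlap. In cKO day 4 Laptm5 stood at 35.8, 6.32, 0 and 126 CPM, on both sides of the 23.6 to 29.1 CPM of cKO PBS.

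Cd68 had no reads in flox PBS and stood at 0, 0 and 7.39 CPM in cKO PBS. Cd68 at day 4 stood at 13.9, 7.83 and 16.3 CPM in flox and at 22.5, 0, 0.0769 and 21.9 CPM in cKO. In the day 11 libraries it stood at 0, 5.30, 0 and 0 CPM in flox and at 5.55, 32.0, 10.7 and 0 CPM in cKO. All 3 flox day 4 libraries were above flox PBS, whereas 3 of 4 flox day 11 libraries were again at 0. With flox PBS at a floor of 3 reads, the change in flox was at least 7.86 log2 units at day 4 and 4.60 at day 11, while the fitted change in cKO was 2.17 ± 3.17 (SE) and 2.29 ± 3.19. The averaged comparison gave edgeR adjusted p of 0.419 and 0.539.

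Cd14, the lipopolysaccharide co-receptor, had no reads in flox PBS and stood at 5.74, 12.9 and 1.03 CPM in cKO PBS. At day 4 it stood at 0, 0.0493 and 8.16 CPM in flox and at 4.52, 0, 0 and 0.578 CPM in cKO. At day 11 it stood at 20.5, 0.975, 0 and 1.83 CPM in flox and at 10.7, 35.5, 1.79 and 0 CPM in cKO, overlapping PBS within cKO. Ms4a7 was at 11.3 CPM in flox day 4 replicate 3, at 0.0424 and 3.49 CPM in flox day 11 replicates 2 and 4 and at 18.6 CPM in cKO day 11 replicate 4. In the 17 other libraries it had no reads. Mpeg1, which encodes the pore protein perforin-2, had medians of 1.34, 8.16 and 7.05 CPM under PBS, at day 4 and at day 11, and Spi1 had medians of 0.385, 2.02 and 3.59 CPM. The day 11 log2 fold change was 0.79 ± 1.89 (SE) for Mpeg1 and 1.63 ± 2.07 for Spi1. These standard errors exceeded the changes.

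The Fc receptors did not lean one way. Fcgr3, the low-affinity activating IgG receptor, had no reads in flox PBS and stood at 0, 0.978 and 0.0448 CPM in cKO PBS. At day 4 it stood at 47.4, 5.12 and 0 CPM in flox and at 8.48, 0, 0.0769 and 0 CPM in cKO. At day 11 it stood at 0, 0.509, 0 and 16.7 CPM in flox and at 8.02, 74.3, 0 and 26.7 CPM in cKO. Each nephritis group thus held at least 1 mouse above every PBS mouse and at least 1 without reads. With flox PBS at the floor, the change in flox was at least 8.33 log2 units at day 4 and 6.30 at day 11, while the fitted change in cKO was 2.63 ± 3.16 (SE) and 6.29 ± 3.82. Averaged over genotypes, the edgeR adjusted p was 0.395 and 0.342.

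Fcgr4, an activating IgG receptor of monocytes and macrophages, had the opposite sign. It stood at 50.0, 0 and 0 CPM in flox PBS and at 26.1, 20.2 and 0 CPM in cKO PBS. It had no reads in any of the 7 flox nephritis libraries. In cKO it stood at 7.74, 51.3, 0 and 0 CPM at day 4 and at 1.07, 0, 9.40 and 2.33 CPM at day 11. Against the floor, the change in flox was -8.44 log2 units or lower at day 4 and -8.67 or lower at day 11, while the fitted change in cKO was -0.06 ± 3.02 (SE) and -2.27 ± 3.06. Averaged over genotypes, the edgeR adjusted p was 0.488 and 0.342. The flox PBS level came from 1 mouse: without flox PBS replicate 1 that group had no reads, and the averaged fitted log2 fold change was -0.02 at day 4 and -1.14 at day 11.

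Fcer1g encodes the signalling gamma chain that pairs with both receptors. It ranged from 0.166 to 89 CPM under PBS (median 38.2), from 0 to 33.3 at day 4 (median 4.35) and from 0 to 71.7 at day 11 (median 23.1). Its log2 fold change was -2.21 ± 1.46 (SE) at day 4 and -0.76 ± 1.36 at day 11. Tyrobp, which encodes the related adaptor DAP12, had medians of 5.70, 28.0 and 30.3 CPM in the 3 stages and a day 11 log2 fold change of 0.86 ± 1.43. Fcgr2b, the inhibitory IgG receptor, had reads in 10 of 21 libraries and a day 11 log2 fold change of -0.83 ± 2.28. The signs of the adaptors and the inhibitory receptor were thus not resolved by these libraries. Of the 5 tested genes of this role, 2 were above 0 and 3 below at both stages.

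All 5 integrin and chemokine receptor genes had a fitted fold change above 0 at both stages, and 0 were called. Itgam, which encodes CD11b, had no reads in any PBS or cKO day 4 library. It stood at 0, 18.4 and 1.17 CPM in flox day 4, at 0, 0.0424, 0 and 0.313 CPM in flox day 11 and at 0, 21.4, 0 and 28.7 CPM in cKO day 11. At day 11 nearly all of its reads thus came from 2 cKO mice. With PBS at the floor the averaged log2 fold change was at least 4.36 at day 11 (edgeR adjusted p = 0.356). Itgax, which encodes CD11c of dendritic cells and some macrophages, stood at 0.0556 CPM in 1 flox PBS library and at 0 in the other 5 PBS libraries. It stood at 14.8 CPM in 1 flox and at 31.6 CPM in 1 cKO day 4 library, at 0.416 CPM in 1 flox day 11 library and at 0.673, 67.5, 0 and 14.5 CPM in cKO day 11. Among the day 11 libraries Itgax and Itgam were both highest in cKO replicates 2 and 4. With cKO PBS at the floor, the change of Itgax in cKO was at least 7.35 log2 units at day 4 and 8.74 at day 11, while the fitted change in flox was 7.60 ± 4.39 (SE) and 2.08 ± 3.18. Averaged over genotypes, the edgeR adjusted p was 0.376 and 0.413.

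Cx3cr1, the fractalkine receptor, had medians of 0, 16.3 and 14.9 CPM under PBS, at day 4 and at day 11, and log2 fold changes of 2.86 ± 2.09 (SE) and 2.26 ± 2.00. Ccr2, the receptor for the monocyte chemokine CCL2, had medians of 6.76, 0 and 7.12 CPM and a day 11 log2 fold change of 0.65 ± 2.01. Itgb2, the shared beta-2 integrin chain, had medians of 3.05, 2.05 and 3.26 CPM and a day 11 log2 fold change of 1.52 ± 2.14. The 95% intervals of these averaged changes all held 0, though within cKO every day 11 library of Cx3cr1 lay above PBS.

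Mrc1, the mannose receptor of tissue macrophages and some endothelial cells, stood at 0, 10.8 and 23.6 CPM in flox PBS and at 53.0, 42.0 and 34.4 CPM in cKO PBS. The day 4 levels of Mrc1 were 46.3, 62.1 and 20.1 CPM in flox and 14.9, 162, 3.77 and 0 CPM in cKO. Its day 11 levels were 102, 57.0, 75.1 and 42.5 CPM in flox and 72.1, 17.1, 40.1 and 31.6 CPM in cKO. The flox day 11 libraries were all above flox PBS, and the cKO day 11 libraries surrounded cKO PBS. The averaged log2 fold change was 0.99 ± 1.09 (SE) at day 4 and 1.25 ± 1.07 at day 11, with edgeR adjusted p of 0.999 and 0.986.

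Capg, an actin-capping protein abundant in macrophages and present in other motile cells, had the clearest difference among the pan-leukocyte and actin genes. It had no reads in the 3 flox PBS libraries and stood at 24.4, 30.7 and 19.4 CPM in cKO PBS. At day 4 it stood at 58.6, 44.5 and 3.93 CPM in flox and at 59.1, 15.0, 45.6 and 0.756 CPM in cKO. By day 11 it stood at 0, 29.7, 30.8 and 23.9 CPM in flox and at 57.7, 83.2, 58.9 and 7.12 CPM in cKO. Capg thus had reads in 17 of the 18 libraries outside flox PBS. With flox PBS at the floor, the change in flox was at least 9.36 log2 units at day 4 and 8.6 at day 11, while the fitted change in cKO was 0.28 ± 1.62 (SE) and 1.06 ± 1.66. The averaged comparison gave edgeR adjusted p of 0.221 and 0.123. Capg was called in it at day 11 without flox day 11 replicate 1, the library at 0 (adjusted p = 0.0431). That omission removes the library that went against the change, and leaving out any other single library gave no call of Capg.

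Coro1a, a leukocyte actin regulator, stood at 0, 3.48 and 5.40 CPM in flox PBS and at 5.01, 8.07 and 13.6 CPM in cKO PBS. At day 4 it stood at 41.9, 2.41 and 10.9 CPM in flox and at 11.2, 64.4, 0.231 and 43.3 CPM in cKO. Day 11 libraries of flox stood at 0, 15.5, 0 and 26 CPM and those of cKO at 0.224, 58.0, 27.8 and 14.6 CPM in cKO. The groups overlapped at both stages, and the log2 fold change was 2.19 ± 1.69 (SE) at day 4 and 1.66 ± 1.62 at day 11. Ptprc, which encodes the leukocyte common antigen CD45, was at 26.6 CPM ± 12.4 (SD, n = 6) under PBS, 30.8 ± 31.2 (n = 7) at day 4 and 38.5 ± 21.1 (n = 8) at day 11. Its log2 fold change was 0.26 ± 1.12 (SE) and 0.52 ± 1.09. The tetraspanin gene Cd53 had a day 11 log2 fold change of 0.45 ± 1.67.

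**Figure D4:**
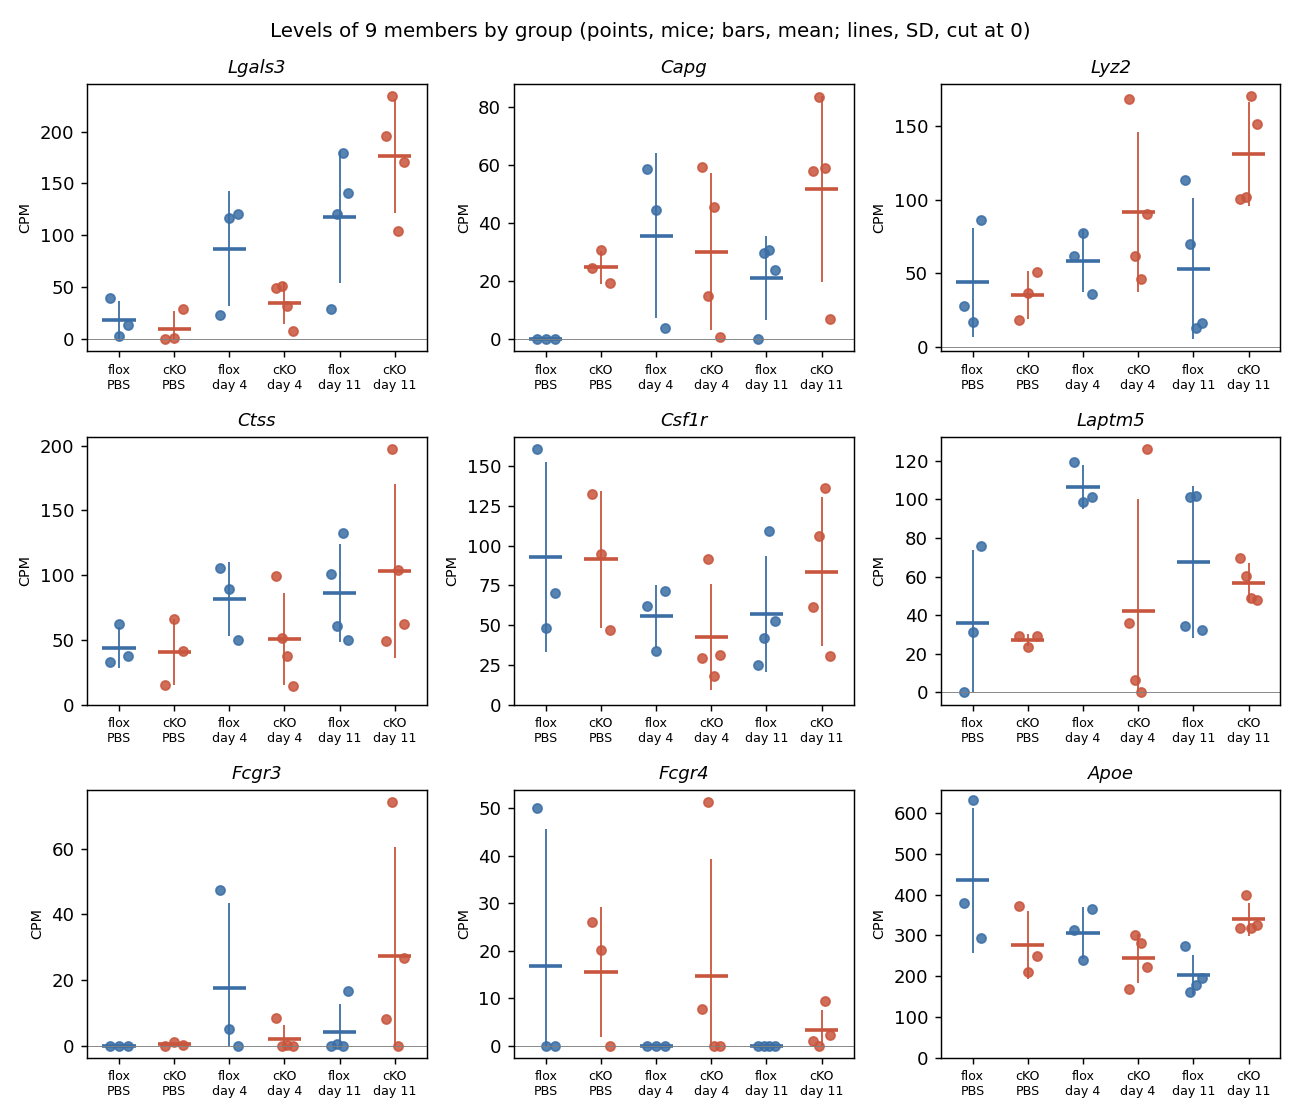
Each panel is 1 of 9 members and the vertical axis is its level in CPM; points are mice, bars the group mean and vertical lines the SD, cut at 0, with flox in blue and cKO in red. Lgals3 has its highest values at day 11, Capg is at 0 in all 3 flox PBS mice, and Apoe at day 11 is higher in every cKO mouse than in every flox mouse.

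Within each genotype, nephritis was set against PBS of the same genotype. In flox at day 4, Cd68, Laptm5 and Capg were above PBS in every library and Ctsd was below, that is 3 of 33 members higher and 1 lower without overlap, beside 6.81% and 3.87% of all tested genes. In flox at day 11, Mrc1 was above PBS and Apoe below in every library, beside 3.86% and 2.53%. In cKO no member was without overlap at day 4, beside 1.37% and 4.76%. In cKO at day 11, Lyz2, Tyrobp, Lgals3, Cx3cr1 and Laptm5 were above PBS in every library, 5 of 33 members, beside 2.75% of all genes, and 0 were below, beside 4.03%.

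Lyz2 stood at 18.0, 36.3 and 50.7 CPM in cKO PBS and at 100.7, 102, 171 and 152 CPM in cKO day 11, a log2 fold change of 1.91 ± 0.83 (SE) with an edgeR adjusted p of 0.805. Tyrobp stood at 2.35, 23.8 and 9.05 CPM in cKO PBS and at 31.5, 40.8, 29.1 and 79.0 CPM in cKO day 11, a log2 fold change of 1.94 ± 2.10 (adjusted p = 1). Lgals3 had a log2 fold change of 4.10 ± 1.17 in cKO (adjusted p = 0.650) and of 2.64 ± 1.09 in flox (adjusted p = 0.579). The Lgals3 difference between the genotypes' changes was 1.46 ± 1.40 (adjusted p = 1), so the changes were not shown to differ. edgeR called 0 members within either genotype at either stage, beside 0.0504% of all genes in cKO at day 11 and 0% in the 3 other comparisons. At an unadjusted p under 0.05 it gave 8 members in flox at day 4, 7 in flox at day 11, 2 in cKO at day 4 and 5 in cKO at day 11, beside 7.93%, 8.25%, 8.16% and 6.02% of all genes. DESeq2 called 6, 9, 2 and 4 members in these comparisons, beside 8.89%, 8.97%, 6.32% and 5.05% of all genes. Limma voom called 1 member, Capg in flox at day 4, beside 0.295% of all genes, and 0 in the others, beside 0.165%, 0.259% and 0.576%. Of the DESeq2 calls, Apoe in flox and Lgals3 in cKO, both at day 11, had reads in both compared groups.

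The genotypes were compared within each stage. Under PBS, Capg, Cd14 and Mrc1 were higher and Ctsd was lower in every cKO than in every flox library, that is 3 and 1 of 33 members, beside 7.27% and 2.96% of all tested genes. Ctsd, which encodes cathepsin D, stood at 509, 411 and 301 CPM in flox PBS and at 257, 263 and 258 CPM in cKO PBS, a log2 fold change of -0.65 ± 0.36 (SE) with an edgeR adjusted p of 0.745. Capg was at least 8.83 log2 units higher in cKO PBS against the floor of 3 reads (adjusted p = 0.726). A fold change above 0 was fitted for 12 of 33 members, beside 52.6% of all genes, and the members' median was -0.11. At day 4 the groups overlapped for every member, beside 1.09% and 3.37% of all genes higher and lower without overlap, 15 of 33 members were above 0, beside 45.8%, and the median was -0.13.

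At day 11 the members leaned higher in cKO. A fold change above 0 was fitted for 24 of 33, beside 48.1% of all tested genes, with a median of 0.77 for the members and -0.02 for all genes. Of the tested members, 12 had reads in a larger share of the cKO libraries and 2 in a smaller share, beside 18.5% and 21.2% of all genes. Apoe and Cx3cr1 were higher and Lgmn lower in every cKO than in every flox library, beside 1.23% and 1.29% of all genes higher and lower without overlap. edgeR called 0 members between genotypes at any stage, beside 0% of all genes. At an unadjusted p under 0.05 it gave 3 members under PBS, 4 at day 4 and 3 at day 11, beside 6.02%, 7.42% and 5.86% of all genes. DESeq2 called 5, 4 and 2 members, all with a compared group without reads, beside 7.31%, 6.31% and 3.94% of all genes. Limma voom called 0 members at each stage, beside 0.18%, 0.13% and 0.0791%.

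Apoe stood at 275, 162, 179.4 and 195 CPM in flox day 11 and at 317, 400, 318 and 324 CPM in cKO day 11. The log2 fold change was 0.74 ± 0.31 (SE), with a 95% interval of 0.12 to 1.37 and an edgeR adjusted p of 0.839. Under PBS Apoe stood at 379, 632 and 292 CPM in flox and at 371, 210 and 248 CPM in cKO, and the groups overlapped. From PBS to day 11 the log2 fold change was -1.10 ± 0.33 in flox (adjusted p = 0.579) and 0.30 ± 0.33 in cKO (adjusted p = 1). The interaction, the change in cKO minus the change in flox, was 1.40 ± 0.47 on the log2 scale, with a 95% interval of 0.44 to 2.35 and an adjusted p of 0.614. DESeq2 gave the interaction an adjusted p of 0.0299. It shares its PBS and day 11 libraries with the values above.

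Cx3cr1 stood at 0, 14, 7 and 0.0447 CPM in flox day 11 and at 26.6, 34.5, 15.9 and 19.8 CPM in cKO day 11, a log2 fold change of 2.20 ± 2.53 (SE) with an edgeR adjusted p of 1. Lgmn stood at 23.4, 32.8, 26.3 and 29.9 CPM in flox day 11 and at 9.93, 5.07, 0.224 and 3.62 CPM in cKO day 11, a log2 fold change of -2.57 ± 1.93 (adjusted p = 1). Fcgr4 and Aif1 had no reads in flox day 11 and were the members DESeq2 called there. Fcgr4 was at least 6.29 and Aif1 at least 7.82 log2 units higher in cKO against the floor, with edgeR adjusted p of 0.839 for both. Aif1 stood at 11.1, 25.8, 0 and 0 CPM in cKO day 11, so 2 of those 4 libraries were also at 0.

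The differences between the genotypes' changes were not resolved for the members as a whole. For the interaction at day 4, 17 of 33 members were above 0, beside 43.5% of all tested genes, with a median of 0.19 for the members and -0.28 for all genes. At day 11, 21 of 33 were above 0, beside 44.8%, with medians of 0.42 and -0.20. edgeR called 0 members in either interaction, beside 0% of all genes, with 4 at an unadjusted p under 0.05 in each, beside 7.74% at day 4 and 6.94% at day 11. DESeq2 called 7 members in each, beside 8.81% of all genes at day 4 and 7.56% at day 11, and limma voom 0, beside 0.0576% and 0%. Leaving out 1 library moved the day 4 median between -0.62 and 0.35, and the day 11 median between -0.04 and 0.92.

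The members were split by background knowledge into 10 that resident kidney cells are also known to make (Ctsb, Ctsd, Ctsz, Lgmn, Apoe, Gpnmb, Lgals3, Capg, Cd14 and Mrc1) and 26 others, most of them restricted to leukocytes. The summed level of the 26 was 438, 286 and 473 CPM in flox PBS, 323, 414 and 318 in cKO PBS, 545, 465 and 433 in flox day 4 and 599, 442, 198 and 543 in cKO day 4. At day 11 it was 457, 435, 401 and 334 CPM in flox and 532, 999, 678 and 612 CPM in cKO. All 4 cKO day 11 libraries were above every flox day 11 and every PBS library, and flox day 11 lay within the PBS range of 286 to 473. They overlapped day 4 of both genotypes, which reached 545 CPM in flox and 599 CPM in cKO, above the 532 CPM of the lowest cKO day 11 library. The highest value, that of cKO day 11 replicate 2, is the library with the highest Cd68, Fcgr3, Itgax and Coro1a among the day 11 libraries. The summed level of the 10 was 882 to 1330 CPM under PBS, 698 to 1190 at day 4, 1050 to 1270 in flox day 11 and 1190 to 1700 in cKO day 11. At day 11 that sum overlapped between genotypes. No p is given for these sums, since the genes were chosen with earlier results of these data known.

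**Figure D5:**
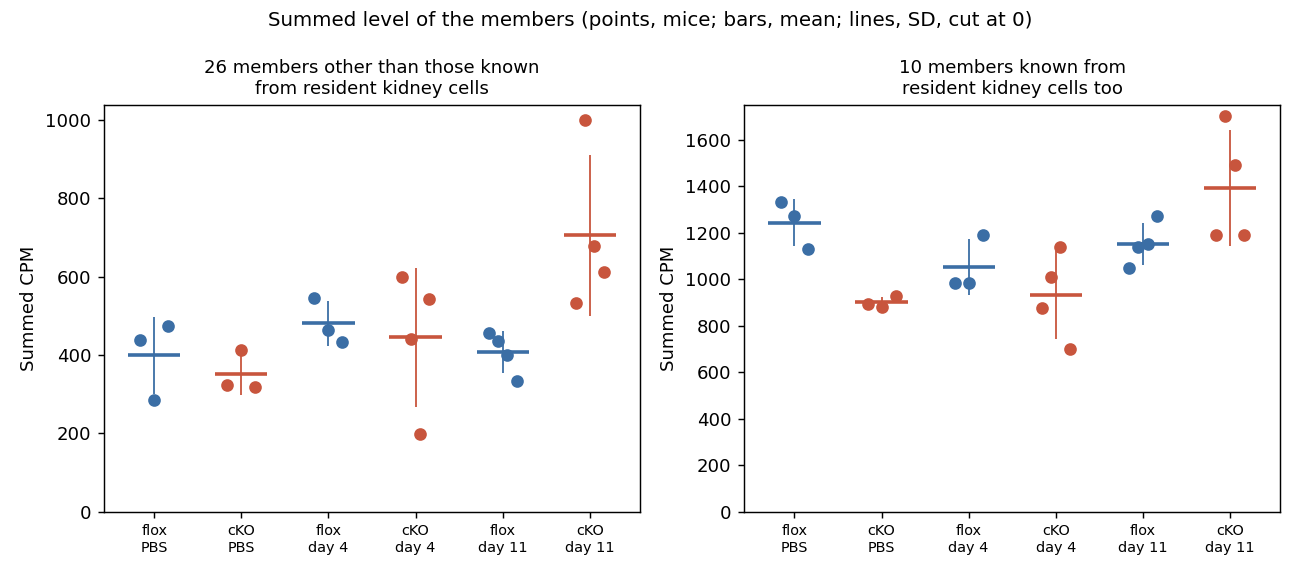
The vertical axis is the summed CPM of the 26 other members on the left and of the 10 members known from resident kidney cells on the right; points are mice, bars the group mean and lines the SD. On the left all 4 cKO day 11 mice lie at 532 CPM or above, over the 334 to 457 CPM of the flox day 11 mice. Day 4 mice reach 545 CPM in flox and 599 CPM in cKO.

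Markers of other cells were measured beside these sums. At day 11 the proximal tubule list, 18 genes with reads for 17 or 18 of them in each library, summed to 795 to 3370 CPM in flox and to 1450 to 2500 CPM in cKO, and the distal tubule list to 647 to 1430 and 347 to 1040 CPM. Between stages the proximal tubule sum was 1870 to 4680 CPM under PBS, 2230 to 7200 at day 4 and 795 to 3370 at day 11, and the distal sum 1210 to 2600, 1330 to 3690 and 347 to 1430 CPM. The neutrophil list, 12 genes, summed to 0.263 to 96.9 CPM under PBS, 0 to 73.0 at day 4 and 0.52 to 79.0 at day 11. Of its genes, Ly6g, Mpo, Elane, Camp, Ngp and Csf3r had no reads in any library. The 6 others, S100a8, S100a9, Ltf, Retnlg, Cxcr2 and Mmp8, had reads at every stage. The T and NK cell list summed to 2.74 to 121, 0.0518 to 127 and 1.28 to 73.4 CPM. Of its 16 genes, 11 had reads under PBS, 12 at day 4 and 14 at day 11. Cd3e was among those without reads under PBS and at day 11. The dendritic cell list summed to 352 to 453 CPM in flox day 11 and to 400 to 668 CPM in cKO day 11, and the B and plasma cell list to 12.6 to 42.7 and 8.54 to 157 CPM. Of the glomerular lists, podocyte genes summed to 7600, 4830, 7720 and 5010 CPM in cKO day 11, beside 5940 to 9320 in flox day 11 and 6880 to 9400 under PBS. Endothelial genes summed to 4490, 3010, 4600 and 2530 CPM in cKO day 11, beside 3700 to 4840 and 4350 to 6350. Both sums were thus lowest in cKO day 11 replicates 2 and 4, the mice with the highest Itgam and Itgax of that stage. The mesangial sum was 2150 to 3700 CPM in cKO day 11, 1640 to 5410 in flox day 11 and 1920 to 3470 under PBS. The parietal epithelial sum was 531 to 994 CPM in cKO day 11, 425 to 827 in flox day 11 and 271 to 524 under PBS, so cKO day 11 overlapped flox day 11 but not PBS. The erythrocyte sum was 506 to 2050 CPM in cKO day 11, 1470 to 15700 in flox day 11 and 2020 to 18300 under PBS. Of these lists, 3 genes were called at day 11 averaged over genotypes. Podocyte Thsd7a fell by 1.80 ± 0.20 (SE) on the log2 scale (edgeR adjusted p = 6.85e-06), mesangial Acta2, the smooth muscle actin, rose by 1.39 ± 0.28 (0.0286) and parietal Akap12 rose by 1.27 ± 0.27 (0.0346). At day 4 Thsd7a fell by 1.34 ± 0.21 (adjusted p = 0.00331). The ribosomal gene CT010467.1 took 15.4% to 30.1% of reads in flox day 11 and 22.2% to 39.5% in cKO day 11, whose libraries held 4550550 to 17200905 reads beside 13421591 to 21049090. Alternative fits took covariates for proximal tubule content and for detected genes, or left out CT010467.1. Beyond these fits, the part of these cell types, of ribosomal reads and of depth in the members' values was not tested.

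Other genes of the same cells and pathways were counted from lists of their known roles. Of 46 tested genes among 50 other macrophage and phagocyte genes, 31 were above 0 at day 11 with a median of 0.40. At day 4, 30 of them were above 0 with a median of 0.42, and edgeR called 0 at either stage. Of all tested genes, 52.9% were above 0 at day 11 and 50.5% at day 4, with medians of 0.07 and 0.01. Of 14 tested among 24 monocyte chemokines and growth factors, 11 were above 0 at day 11 with a median of 0.48 and 0 were called, and the 10 others, among them Ccl3, Csf2 and Ccr1, did not pass the low-count filter. Of 10 tested among 20 cytokines and mediators, 7 were above 0 at day 11 with a median of 1.47. Of these, 1 was called, Spp1, which encodes osteopontin, a matrix protein of macrophages and of tubule and parietal epithelial cells. Spp1 was at 66.7 CPM ± 19.0 (SD, n = 6) under PBS and at 327 ± 118 (n = 8) at day 11, and it rose by a log2 fold change of 2.29 ± 0.33 (SE, edgeR adjusted p = 0.000266). Among the listed cytokine genes, Il6, Il1a and Il10 had no reads at any stage. Tnf had none under PBS or at day 4 and Il1rn none under PBS, whereas Il1b, Il18 and Tgfb1 had reads in every group.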

How the data were processed

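Glomerular RNA of 21 mice was measured by 3' tag sequencing, 1 library per mouse. The deposited values are estimated counts, 1 per gene and library, without normalization, per the file headers. The submitters' processing notes name Picard, DRAGEN, fastp, FastQC and, as build, mm10, without versions or roles. The counting of strand, duplicates and overlapping genes is not given in the sources used here. Csf1r, Fcgr2b, Ctsb, Ctsd, Ctsz, Itgam, Cx3cr1 and Coro1a share bases with another gene of the table and are uncertain to that extent. Symbols were matched by identifier to GENCODE M21 (GRCm38) for 35513 of 35598 genes.

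Rounded counts went into 1 edgeR model (4.0.16, under R 4.3.3) of 6 group means, with a robust quasi-likelihood F test and 15 residual degrees of freedom. Low counts were removed by filterByExpr (minimum count 10), and TMM factors were 0.751 to 1.12. A gene was called when its p, adjusted over 13898 genes by Benjamini-Hochberg, was under 0.05, and each adjusted p is from edgeR unless another tool is named. The common biological coefficient of variation came to 1.66. Standard errors are the log2 fold change, unsigned, over the root of F. Where a group had no reads, a floor of 3 reads over that group gave the bound, within the genotype where only 1 genotype lacked reads, which covers counting error only. P-values set a difference between group means against the spread between mice within groups, with the estimate of that spread shared by all groups. No result on simulated counts is given here, and none is used as support.

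The members and gene lists were chosen with earlier results of these data known. Values by library are given for the 2 members of each role with the smallest p at day 11 and the 1 with the smallest p at day 4, both averaged over genotypes, and for those named after their values were seen (Apoe, Lyz2, Laptm5, Tyrobp, Cx3cr1, Lgmn, Ctsd and Aif1). Of each other list, at most the 2 genes with the smallest p at day 11 averaged over genotypes could be named, and those called are. Alternatives were DESeq2 1.42.0, limma 3.58.1 (voom with quality weights), a replicate block, other filters on low counts, median-ratio scaling, covariates for proximal tubule content and detected genes, the compared groups alone, and libraries or the most abundant gene left out. Whether replicate numbers pair libraries is not given in the sources used here. The correlation of deviations was -0.0511 to 0.0300 between same-numbered and -0.0544 to 0.0583 between different-numbered libraries. With the wide spread between mice, such values cannot show whether libraries were paired. The figures used Python 3.11.15 and matplotlib 3.10.9.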

Additional observations from a re-analysis of the deposited data

Results flagged for a closer look

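For the 12 members chosen by rule, the 3 groups of 4 libraries were searched for 1 library that stood apart, its gap to the nearest other divided by the group's range on a log2(CPM + 1) scale exceeding 0.83. This held in 11 of 36 groups. The threshold flags about 1 in 20 groups of normally distributed values, a rate that does not hold for groups mostly at 0. Single libraries stood above the 3 others for Gpnmb in cKO day 4 replicate 3 (41 CPM), Itgax in cKO day 4 replicate 4 (31.6 CPM), Fcgr3 in cKO day 4 replicate 1 (8.48 CPM) and Ms4a7 in cKO day 11 replicate 4 (18.6 CPM). In flox day 11, replicate 4 stood above the others for Fcgr3 (16.7 CPM), Ms4a7 (3.49 CPM) and Itgam (0.313 CPM), replicate 2 for Cd68 (5.3 CPM) and replicate 3 for Itgax (0.416 CPM). Capg stood below the others in flox day 11 replicate 1 (0 CPM) and in cKO day 11 replicate 4 (7.12 CPM). In 9 of these 11 groups the other 3 libraries were at or near 0, between 0 and 0.509 CPM.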

How the results depend on the processing

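With DESeq2 the members called were 8 at day 4 and 9 at day 11 averaged over genotypes, 1 for day 11 against day 4, 6 and 9 in flox at day 4 and day 11, 2 and 4 in cKO, 5, 4 and 2 between genotypes under PBS, at day 4 and at day 11, and 7 in each interaction, where edgeR called 0. Limma voom called 1 member in flox at day 4, where it moved the median from 0.41 to 1.48, and it moved the day 4 interaction median to -0.52. Omitting the low-count filter gave 1 call at day 11 (Lgals3). With 1 library left out, calls ran from 0 to 1 at day 4, at day 11 and in cKO at day 11, always without cKO PBS replicate 3 and at day 11 also without flox day 11 replicate 1. Medians then ran from 0 to 1.49 in flox at day 4, from 0.65 to 1.96 in flox at day 11 and from -0.62 to 0.35 for the day 4 interaction. Signs turned at day 4 for Mrc1 (-0.16 with voom, and -0.45 without cKO day 4 replicate 2, in a range to 1.53 with 1 library left out) and Cd14 (-0.10 without flox day 4 replicate 3, in a range to 3.61). The fold change became 0, with no reads left at either stage, for Gpnmb without cKO day 4 replicate 3 (0 to 5.47 with 1 library left out), also when cKO day 11 replicate 3 was left out with it, and for Ms4a7 without flox day 4 replicate 3 (0 to 4.82). Counts of members above 0, added after the data were seen, ran from 20 to 26 at day 4, 23 to 27 at day 11 and 22 to 26 between genotypes at day 11 with 1 library left out. The replicate block left 0 calls in all 12 comparisons, with members' medians of 0.84 at day 4 and 1.24 at day 11 and 24 and 26 members above 0. It moved the day 4 interaction median from 0.19 to -0.37. The cause of these changes was not tested. Depth limits the sparse members, whose levels in many libraries rest on 0 reads or a few.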
